A study of Mus musculus with 6 samples.

Results

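The genes described are the mouse p53 gene (Trp53), the gene of p21 (Cdkn1a), the p53 targets Mdm2, Ccng1 and Phlda3, the GADD45 family (Gadd45a, Gadd45b and Gadd45g) and the polo-like kinase genes Plk2 and Plk3, also taken as p53 targets. The genes were chosen by symbol with earlier results of these data known, and all 10 were found among the 43432 gene identifiers of the count tables. The injured group (SCI, n = 3 mice) consisted of wildtype C57BL/6 mice whose spinal cord received a unilateral contusion of 50 kdyn at cervical level 5, with tissue taken 4 h later. The control group (sham, n = 3 mice) was of the same strain and genotype and had the overlying bone removed without a contusion. The sources used here state no age or sex, and no separate collection time for sham. Each library held 3′-end reads of bulk tissue, so a count does not grow with transcript length, and levels of different genes are compared below as CPM, a gene's counts relative to the library's total after scaling by the trimmed mean of M values (TMM).

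The transcription factor p53 is held at a low level by the ubiquitin ligase encoded by Mdm2, which is itself a p53 target, so that activation of p53 raises its own inhibitor. Active p53 induces p21, which binds cyclin-dependent kinases and stops the cell cycle, and p21 is also induced in many tissues by signals that do not need p53. The GADD45 proteins are small stress-induced proteins that bind the kinase MAP3K4, p21 and the replication clamp PCNA, and Plk2 and Plk3 were first described as genes induced by serum or growth factors.

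The sequences before the start sites of Cdkn1a and Ccng1 are shown because both of these sequences hold a p53 element. Of this pair Cdkn1a alone was called. The sequences of Gadd45b and Gadd45g are shown because these genes are the family members that were called. They are from RefSeq on GRCm38.p6, are written 5′ to 3′ on the strand of the gene, and hold the 250 bases before a start site. Capitals mark the p53 element, CACGTG (an E-box) and TATAAA.
Cdkn1a, chr17:29090729-29090978, plus strand: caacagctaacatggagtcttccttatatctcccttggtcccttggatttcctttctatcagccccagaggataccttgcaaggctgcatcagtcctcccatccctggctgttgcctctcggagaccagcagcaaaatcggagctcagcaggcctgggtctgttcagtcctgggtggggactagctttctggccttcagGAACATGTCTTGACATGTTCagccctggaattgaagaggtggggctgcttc
Ccng1, chr11:40755287-40755536, minus strand: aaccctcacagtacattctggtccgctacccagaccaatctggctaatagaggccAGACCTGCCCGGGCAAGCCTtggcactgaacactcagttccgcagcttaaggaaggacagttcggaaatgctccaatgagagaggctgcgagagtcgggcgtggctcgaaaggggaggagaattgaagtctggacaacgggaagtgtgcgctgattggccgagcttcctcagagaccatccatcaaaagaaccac
Gadd45b, chr10:80929841-80930090, plus strand: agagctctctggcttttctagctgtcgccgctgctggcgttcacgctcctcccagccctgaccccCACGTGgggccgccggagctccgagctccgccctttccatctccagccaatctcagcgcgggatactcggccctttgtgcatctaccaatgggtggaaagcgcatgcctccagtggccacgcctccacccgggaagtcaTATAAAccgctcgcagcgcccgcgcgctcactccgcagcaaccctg
Gadd45g, chr13:51846425-51846674, plus strand: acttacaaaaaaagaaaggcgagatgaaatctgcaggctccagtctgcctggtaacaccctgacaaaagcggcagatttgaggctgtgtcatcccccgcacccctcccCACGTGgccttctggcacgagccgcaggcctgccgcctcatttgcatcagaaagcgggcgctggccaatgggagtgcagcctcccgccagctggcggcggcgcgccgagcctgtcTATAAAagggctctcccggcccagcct

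The p53 element searched was a pair of p53 decamers side by side, on either strand, with at most 1 of its 20 bases off the consensus. It was found in 2 of the 11 windows of these genes and in 0.0761% of all 32851 windows of that length. In Cdkn1a the match was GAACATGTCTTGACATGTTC, 51 to 32 bases before the upstream of its 2 start sites, which lie 2790 bases apart. In Ccng1 it was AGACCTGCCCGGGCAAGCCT, 195 to 176 bases before the start. CACGTG stood in the windows of Gadd45b and Gadd45g and in 6.02% of all windows, and TATAAA in those of Gadd45b, Gadd45g and Trp53 and in 12.4% of all windows. The windows of Plk2 and Plk3 each held TGACG, the core of a cAMP response element, as did 17.8% of all windows. No window of the 10 genes matched the AP-1 site TGANTCA, which 6.75% of all windows held, or a kB site (7.25%) or a CArG box (1.47%). Single p53 decamers were commoner than the pair, with at least 1 in the windows of Trp53, Mdm2, Ccng1, Cdkn1a and Gadd45a and in 7.13% of all windows. Only these windows were searched, so a p53 element elsewhere, such as in an intron, would have been missed. The search therefore does not show that the other genes lack one. A match of letters is a description of the sequence and not a measurement of binding.

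The libraries held 5364263 to 8229961 counts in SCI and 3407176 to 11543633 in sham, with 17535 to 18442 genes detected per library. Markers of the cord were present in every library. The 5 neuron markers summed to 4127 to 4350 CPM in SCI and 3705 to 5373 CPM in sham. Summed oligodendrocyte markers were at 4823 to 8617 CPM in SCI and 5553 to 7391 CPM in sham. Among 5 microglia markers 1 was called, P2ry12, a receptor of resting microglia, at 2.02 ± 0.88 CPM in SCI and 7.74 ± 1.09 CPM in sham (SD, n = 3 mice each; edgeR, adjusted p = 0.0157). Of the other microglia markers Cx3cr1 was at 19.6 ± 5.01 CPM in SCI and 29.0 ± 7.19 CPM in sham (adjusted p = 0.631). Tmem119 was at 5.49 ± 1.45 CPM in SCI and 6.72 ± 3.18 CPM in sham. The means of C1qa and Csf1r were higher in SCI, within their spread. C1qa was at 87.3 ± 20.6 CPM in SCI and 76.9 ± 8.92 CPM in sham, and Csf1r at 119 ± 29.4 and 110 ± 19.2 CPM. The 5 microglia markers summed to 204 to 287 CPM in SCI and 209 to 246 CPM in sham. Transcripts of other tissues were present too. Markers of hepatocytes, which are not a cord cell type, summed to 50089 to 54425 CPM in SCI and 39459.6 to 92910.2 CPM in sham, the highest being sham 2. Erythroid markers were higher in SCI for 5 of 5 genes, with sums of 1582 to 4280 CPM in SCI and 610.02 to 839.7 CPM in sham. Of 6 neutrophil markers, 4 were tested and 0 called by edgeR, though all 4 had an unadjusted p under 0.05. In these 4, SCI lay above sham without overlap, as in 7.73% of all genes tested. The 6 summed to 47.6 to 64.4 CPM in SCI and 14.6 to 39.5 CPM in sham. Over all genes tested, 0.929% were called in either direction and 7.38% had an unadjusted p under 0.05. None of these marker lists had a gene at 0 throughout. The part of microglia and of these other tissues in the results below was not tested, beyond a fit with the hepatocyte level as a covariate, in which the same 3 genes were called. In bulk tissue, fewer cells of a type and less RNA per cell cannot be told apart.

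After contusion Cdkn1a, Gadd45b and Gadd45g were higher, and Trp53, Mdm2, Ccng1, Phlda3, Gadd45a, Plk2 and Plk3 did not pass the test. The 13560 genes with enough counts, all 10 of these among them, were tested together with edgeR's quasi-likelihood test, and a call needed an adjusted p (Benjamini-Hochberg) under 0.05. Called higher were 3 of the 10 and lower 0, where 0.885% of all genes were called higher, 0.0442% lower and 0.929% in either direction. At an unadjusted p under 0.05 the count was also 3 of 10, against 7.38% of all genes. The groups did not overlap, with SCI above sham, in the same 3 genes, and in 7.73% of all genes tested. The log2 fold change was positive in 9 of the 10 genes, against 49.7% of all genes, and its median was 0.47, against -0.0025 over all genes. The 10 genes were chosen with earlier results of these data known. Their shares therefore do not test whether the set differs from all genes.

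**Figure D1:**
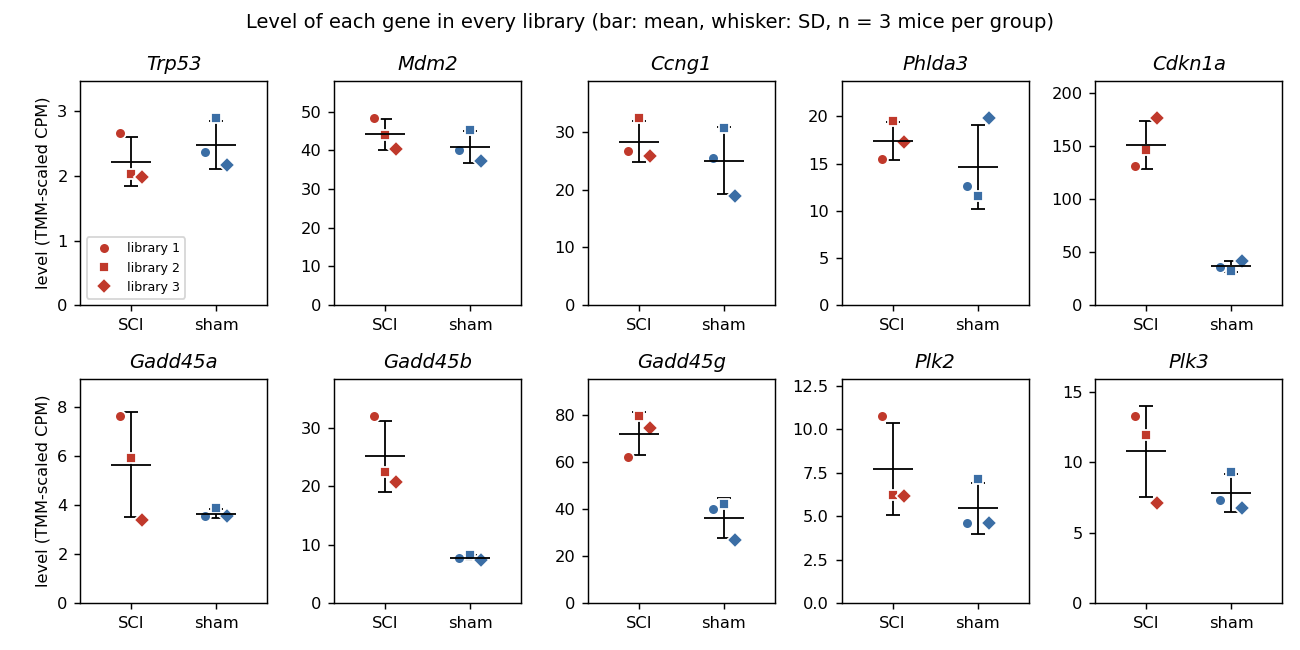
Level of each of the 10 genes in every library, in TMM-scaled CPM, with SCI (red) left of sham (blue), the bar at the mean and the whisker at 1 SD (n = 3 mice per group). Cdkn1a, Gadd45b and Gadd45g show SCI points that all lie above the sham points, and in the other 7 genes the points of the groups overlap.

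Trp53, at chromosome 11, 69580359 to 69591873 (GRCm38, plus strand; ENSMUSG00000059552), was the lowest of the 10 transcripts. It had 2.66, 2.02 and 1.98 CPM in SCI libraries 1 to 3, against 2.36, 2.89 and 2.17 CPM in sham libraries 1 to 3, from between 8 and 30 counts per library. The groups overlapped. Its log2 fold change was -0.17 with a 95% interval of -1.05 to 0.71 (edgeR, adjusted p = 0.975), so changes between these bounds are not excluded. The interval is not adjusted for the number of genes tested and is not a limit of detection.

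Mdm2, the ligase that limits p53, lies at chromosome 10, 117688875 to 117710758 (minus strand; ENSMUSG00000020184). It had 48.2, 44.03 and 40.2 CPM in SCI, against 40.2, 45.2 and 37.1 CPM in sham. The ranges overlapped over most of their length. Its log2 fold change of 0.11 had a 95% interval of -0.26 to 0.48 (edgeR, adjusted p = 0.956), from 137 to 469 counts per library.

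Ccng1, whose product cyclin G recruits a phosphatase to MDM2, lies at chromosome 11, 40748552 to 40755311 (minus strand; ENSMUSG00000020326). It had 26.7, 32.3 and 25.8 CPM in SCI, against 25.5, 30.6 and 19.0 CPM in sham, and SCI 2 and sham 2 were the highest of their groups. The log2 fold change was 0.16 (95% interval -0.29 to 0.61). Phlda3, a p53 target that restrains AKT at the membrane, lies at chromosome 1, 135766119 to 135769136 (plus strand; ENSMUSG00000041801). It had 15.5, 19.5 and 17.2 CPM in SCI, against 12.6, 11.6 and 19.8 CPM in sham. Sham 3 had the highest Phlda3 level of the 6 libraries, and the log2 fold change was 0.28 (95% interval -0.23 to 0.80). Neither passed the test (edgeR, adjusted p = 0.936 for Ccng1 and 0.886 for Phlda3).

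Cdkn1a lies at chromosome 17, 29090976 to 29100727 (plus strand; ENSMUSG00000023067), and has 5 annotated transcripts. It had 131, 147 and 176 CPM in SCI libraries 1 to 3, against 36.2, 32.1 and 42.02 CPM in sham libraries 1 to 3. Every SCI library stood at over 3 times the highest sham library, and SCI 3 was the highest. The means were 152 ± 22.9 CPM in SCI and 36.8 ± 5.002 CPM in sham (SD, n = 3 mice each). The fold change was 4.14, with a 95% interval of 3.10 to 5.52, or 2.05 ± 0.20 on the log2 scale (SE; edgeR, adjusted p = 5.74e-05). Among the 13560 genes it ranked 6th by p and 57th by log2 fold change. The lower bound of its log2 interval, 1.63, lay above the upper bounds of all other genes described except Gadd45b (2.18). This held for Trp53, Mdm2, Ccng1 and Phlda3, and also for Gadd45a (1.39), Gadd45g (1.41), Plk2 (1.17) and Plk3 (1.06).

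In sham cord Cdkn1a was 1 of 3 transcripts at a like level, at 36.8 CPM, with Mdm2 at 40.8 ± 4.05 CPM and Gadd45g at 36.1 ± 8.37 CPM (SD, n = 3 mice each), whose order was within their spread. Below them in sham came Ccng1 (25.02 CPM) and Phlda3 (14.7 CPM), then Plk3 (7.82 CPM), Gadd45b (7.78 CPM) and Plk2 (5.44 CPM), then Gadd45a (3.64 CPM) and Trp53 (2.47 CPM). Plk3 and Gadd45b did not differ beyond their spread. In SCI cord Cdkn1a stood first, followed by Gadd45g at 72.0 CPM and Mdm2 at 44.2 CPM, with no overlap between these 3 over the libraries. Ccng1 (28.3 CPM) and Gadd45b (25.1 CPM) overlapped each other in SCI.

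To set Cdkn1a against each other gene, the log2 ratio of their TMM-scaled levels was taken within each library (0.5 CPM added to both). In such a ratio the scaling between libraries cancels, except through the added value. Cdkn1a over Mdm2 was 1.44, 1.73 and 2.12 in SCI, against -0.15, -0.49 and 0.18 in sham. The mean difference, SCI minus sham, was 1.91, and the groups did not overlap. Against Trp53 the difference was 2.16, against Ccng1 1.83 and against Phlda3 1.75. It was 1.52 against Gadd45a, 1.02 against Gadd45g, 1.58 against Plk2 and 1.62 against Plk3. In these 8 ratios no SCI library overlapped a sham library (exact two-sided permutation test over libraries, p = 0.1 for each, the smallest that 3 against 3 can give, among 9 ratios compared). All of these ratios share Cdkn1a, whose own groups did not overlap, so they are not separate results about the other genes. The share of all genes that would separate from Cdkn1a in this way was not computed.

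The ninth ratio, Cdkn1a over Gadd45b, was 2.02, 2.68 and 3.05 in SCI, against 2.16, 1.89 and 2.44 in sham. These ranges overlapped. The difference was 0.42, with means of 2.58 ± 0.52 in SCI and 2.16 ± 0.28 in sham (SD, n = 3 mice each; exact two-sided permutation test, p = 0.3), and this does not show that both genes changed by the same factor.

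**Figure D2:**
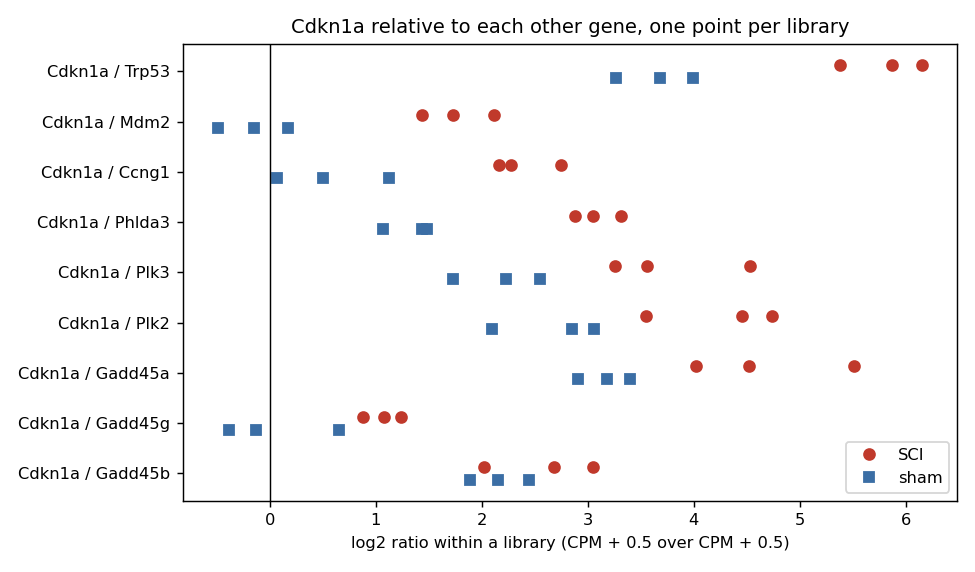
Log2 ratio of Cdkn1a to each other gene within a library (0.5 CPM added to both), with 3 SCI points (red circles, above) and 3 sham points (blue squares, below) per ratio. The points separate for 8 of the 9 genes and overlap for Gadd45b, where SCI ran from 2.02 to 3.05 and sham from 1.89 to 2.44. All ratios share Cdkn1a, whose own groups did not overlap.

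The GADD45 family was led by Gadd45g in both groups, and 2 of its 3 members rose. Gadd45b, first known as a gene of myeloid differentiation and an NF-kB target, lies at chromosome 10, 80930073 to 80932204 (plus strand; ENSMUSG00000015312). It had 32.04, 22.5 and 20.8 CPM in SCI, against 7.75, 8.28 and 7.32 CPM in sham. The lowest SCI library stood well above all sham libraries, and SCI 1 was the highest. The fold change was 3.22, with a 95% interval of 2.27 to 4.55, or 1.68 ± 0.23 on the log2 scale (SE; edgeR, adjusted p = 0.00123).

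Gadd45g, first cloned as a cytokine response gene, lies at chromosome 13, 51846678 to 51848468 (plus strand; ENSMUSG00000021453). It had 62.02, 79.4 and 74.5 CPM in SCI, against 39.8, 42.1 and 26.6 CPM in sham. The groups did not overlap, and sham 3, the shallowest library, was the lowest. The fold change was 1.97 (95% interval 1.46 to 2.65), or 0.98 ± 0.20 on the log2 scale (SE; edgeR, adjusted p = 0.0270). That call was not stable when 1 library was left out. It was lost without SCI 1 (adjusted p = 0.05502), SCI 2 (0.173), SCI 3 (0.104) or sham 1 (0.1303) and held without sham 2 (0.00549) or sham 3 (0.0355), while the log2 fold change ran from 0.81 to 1.08 over these fits.

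Gadd45a, the family member known as a p53 target, lies at chromosome 6, 67035096 to 67037457 (minus strand; ENSMUSG00000036390). It had 7.62, 5.92 and 3.37 CPM in SCI, against 3.55, 3.85 and 3.52 CPM in sham. SCI 3 lay below all 3 sham libraries, whereas SCI 1 and SCI 2 lay above them. The log2 fold change was 0.65 with a 95% interval of -0.10 to 1.39 (edgeR, adjusted p = 0.745). Its exons share 337 bases with the antisense transcript E230016M11Rik, which had 3.68 ± 1.43 CPM in SCI and 2.91 ± 0.55 CPM in sham (SD, n = 3 mice each), and since no source used here states whether the counting used strand, reads of the pair may not be separate. Of the other genes described, Cdkn1a shares 273 exonic bases with an unnamed antisense transcript and Plk3 shares 84 with Tctex1d4, and neither partner was among the genes tested.

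The summed level of the 3 GADD45 genes was 102, 108 and 98.7 CPM in SCI, against 51.1, 54.2 and 37.4 CPM in sham. Gadd45b made up 31.5%, 20.9% and 21.1% of the family's counts in SCI libraries 1 to 3, against 15.2%, 15.3% and 19.6% in sham libraries 1 to 3. The shares of Gadd45b did not overlap between the groups, but its 95% exact binomial interval in sham 3, 13.3 to 27.2% of 138 counts, covered the shares of SCI 2 and SCI 3. Such intervals cover counting error only. Gadd45g made up 61.0 to 75.5% in SCI and 71.01 to 77.9% in sham, and Gadd45a 3.41 to 7.49% in SCI and 6.94 to 9.42% in sham.

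**Figure D3:**
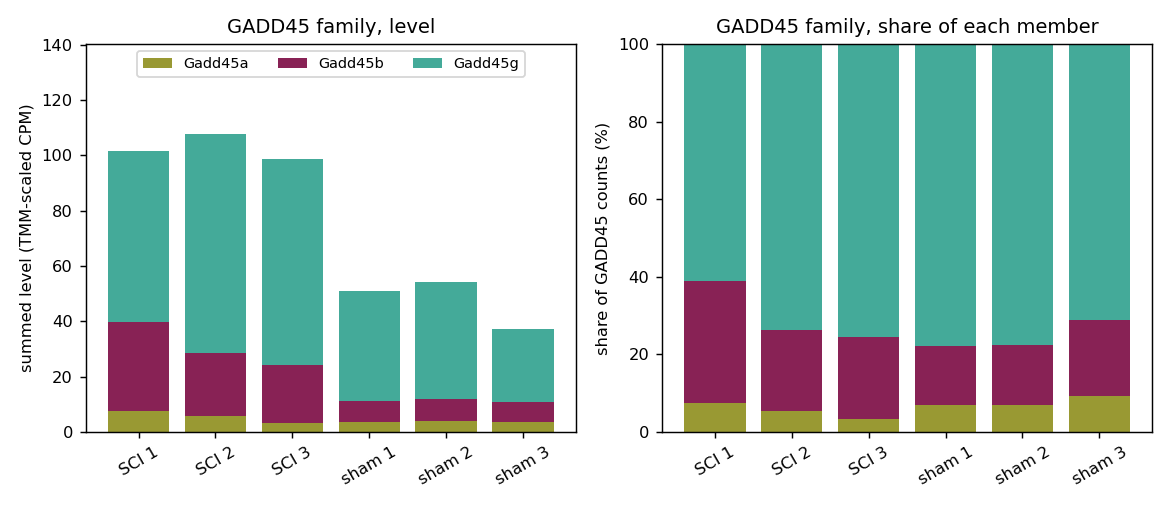
Summed level of the GADD45 genes in TMM-scaled CPM (left) and the share of each gene in the family's counts in percent (right), 1 bar per library with SCI left of sham. All SCI sums, 98.7 to 108 CPM, lie above all sham sums, 37.4 to 54.2 CPM, and Gadd45g is the main part of every bar.

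The polo-like kinase genes were low and did not pass the test. Plk2, which acts at centrioles and synapses, lies at chromosome 13, 110395046 to 110400844 (plus strand; ENSMUSG00000021701) and had 10.8, 6.21 and 6.15 CPM in SCI, against 4.595, 7.13 and 4.61 CPM in sham. SCI 1 alone exceeded the highest sham library. Plk3, a stress-responsive kinase, lies at chromosome 4, 117128655 to 117133963 (minus strand; ENSMUSG00000028680) and had 13.3, 11.98 and 7.14 CPM in SCI, against 7.35, 9.34 and 6.78 CPM in sham. The log2 fold changes were 0.48 (95% interval -0.20 to 1.17) for Plk2 and 0.46 (-0.14 to 1.06) for Plk3 (edgeR, adjusted p = 0.834 and 0.808), so that increases of about 2-fold lie inside both intervals. Plk2, Plk3, Gadd45a and Gadd45b were each highest in SCI 1, whereas Cdkn1a was highest in SCI 3, the library with the highest erythroid sum. The erythroid sums were 2991, 1582 and 4280 CPM in SCI libraries 1 to 3, while Cdkn1a was lowest in SCI 1. A relation between the 2 was not tested. Without SCI 3 the log2 fold change of Cdkn1a was 1.92 ± 0.20 (SE; edgeR, adjusted p = 0.000333).

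**Figure D4:**
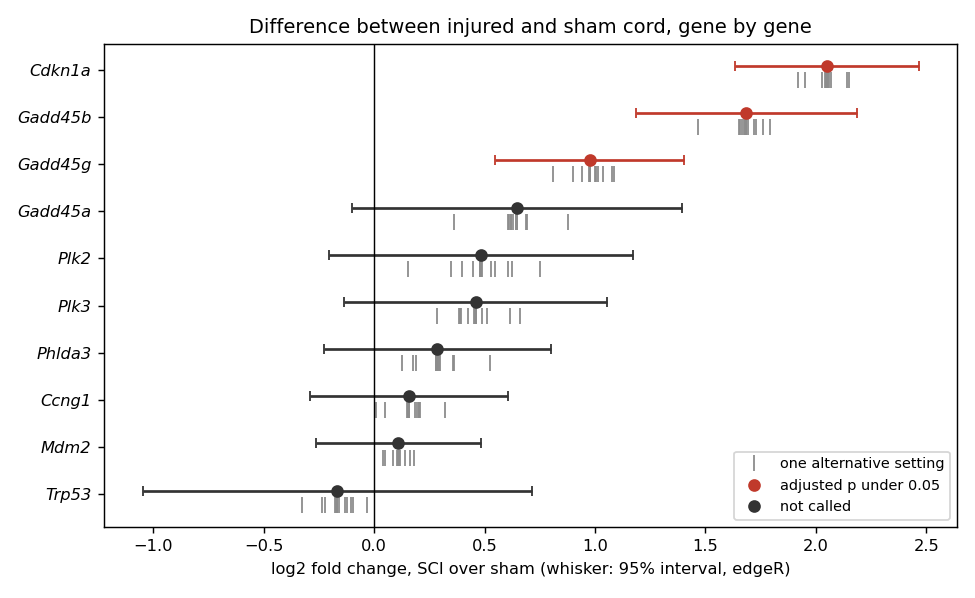
Log2 fold change of each gene, SCI over sham, with its 95% interval from edgeR (red: adjusted p under 0.05) and, as grey ticks below, the values under 14 other settings. The ticks of Cdkn1a run from 1.92 to 2.15 and those of Gadd45b from 1.47 to 1.79, and every tick of Trp53 lies below 0.

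Other genes of the p53 pathway were taken from lists of known members, also chosen with earlier results of these data known. Of 32 further p53 targets, 27 were tested and 0 called in either direction by edgeR, where the share over all genes was 0.929%, so that a count of 0 is near the background. At an unadjusted p under 0.05 there were 5 of the 27, or 18.5%, against 7.38% of all genes. Their median log2 fold change was -0.01, and 13 of the 27 were positive. The smallest p belonged to Pmaip1, which encodes the cell death protein NOXA, at 2.90 ± 0.54 CPM in SCI and 0.927 ± 0.375 CPM in sham, a log2 fold change of 1.73 ± 0.50 (SE, adjusted p = 0.217). Btg2, an antiproliferative gene that also responds to growth factors, was at 22.7 ± 3.25 CPM in SCI and 12.2 ± 5.62 CPM in sham (adjusted p = 0.333). Polk, a translesion DNA polymerase, was at 3.56 ± 0.42 CPM in SCI and 6.79 ± 1.16 CPM in sham (adjusted p = 0.397). SCI lay above sham without overlap in 5 of the 27, or 18.5%, which were Pmaip1, Btg2, Fas, Aen and Sesn1 (the last 3 chosen after their values were seen), where the share over all genes was 7.73%. SCI lay below sham in 1, Polk, or 3.70%, against 5.94% of all genes.

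Of 20 genes of the p53 family and its regulators, 17 were tested and 0 called by edgeR (2 at an unadjusted p under 0.05), with a median log2 fold change of -0.02. Over all genes the shares were 0.929% called and 7.38% at that unadjusted p, so the count of 0 called is again near the background. Wrap53, the neighbour of Trp53 on the opposite strand, was at 9.48 ± 1.74 CPM in SCI and 6.25 ± 0.18 CPM in sham (adjusted p = 0.653). The acetyltransferase gene Ep300 was at 45.9 ± 1.65 CPM in SCI and 58.9 ± 4.48 CPM in sham (adjusted p = 0.674), and Ppp1r13b, the p53-binding ASPP1 gene, had a log2 fold change of 0.52 ± 0.25 (SE). Among the other CDK inhibitors, 4 of 6 were tested and 0 called (0 at an unadjusted p under 0.05). Against the same shares of 0.929% and 7.38%, these counts say nothing particular about the 4 genes. Cdkn1b, the gene of p27, was at 31.3 ± 6.34 CPM in SCI and 38.1 ± 4.88 CPM in sham, and Cdkn1c, the gene of p57, at 22.5 ± 2.01 CPM in SCI and 20.5 ± 2.53 CPM in sham. Cdkn2c was at 2.78 ± 0.85 CPM in SCI and 4.53 ± 1.35 CPM in sham (adjusted p = 0.715).

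For the cell cycle machinery on which p21 acts, the counts of calls were near the background of 0.929% of all genes and say nothing particular about these lists. All 11 G1 cyclins, kinases and partners were tested and 0 called by edgeR (0 at an unadjusted p under 0.05), with log2 fold changes from -0.22 to 0.22. The smallest p values were those of Rb1 (-0.22 ± 0.22), Cdk4 (-0.19 ± 0.24) and Cdk6 (0.22 ± 0.31) on the log2 scale (SE). Genes of S phase, G2 and mitosis were barely detected, with 7 of 22 above the filter on low counts and 0 called (0 at an unadjusted p under 0.05). Mki67, a marker of cycling cells, was at 1.54 ± 0.079 CPM in SCI and 1.37 ± 0.067 CPM in sham, Top2a at 3.63 ± 1.96 CPM in SCI and 4.62 ± 0.84 CPM in sham, and Birc5 at 1.64 ± 0.85 CPM in SCI and 2.24 ± 1.35 CPM in sham. At these levels only large changes could be detected. The 17 partners of GADD45 comprised genes of kinase signalling, genes of DNA demethylation and Gadd45gip1. Of these, 15 were tested and 0 called by edgeR (0 at an unadjusted p under 0.05). Gadd45gip1 (log2 fold change 0.36 ± 0.19, SE), Tet2 (0.54 ± 0.31) and Tet1 (-0.40 ± 0.31) had the smallest p.

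**Figure D5:**
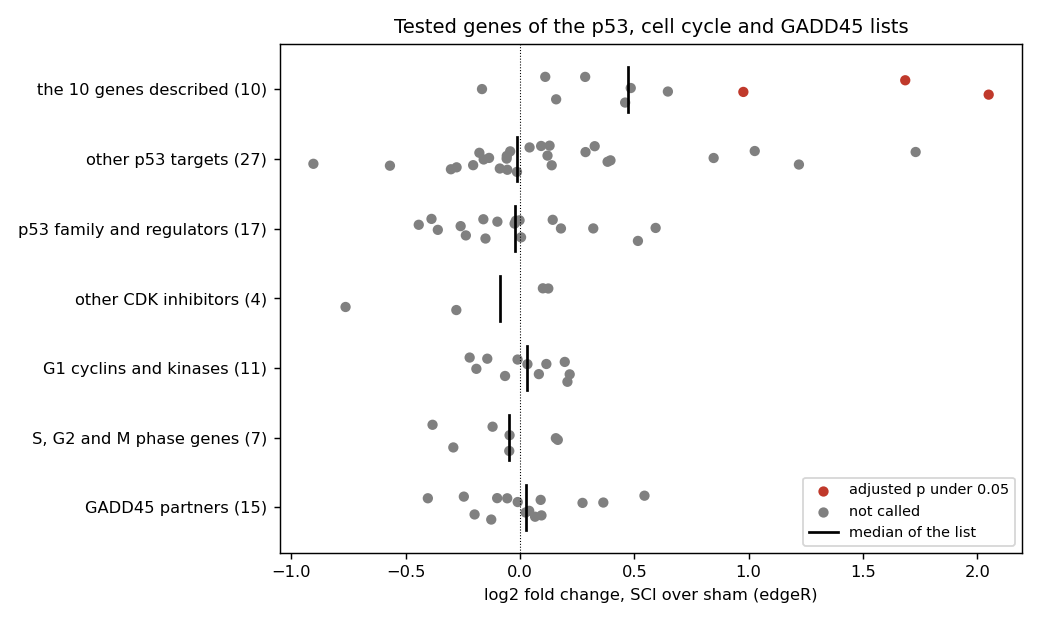
Log2 fold change, SCI over sham, of the 10 genes described and of every tested gene of 6 related lists (number tested in brackets), with the list's median as a black bar and called genes in red. The called genes are Cdkn1a, Gadd45b and Gadd45g, and the medians of the other lists lie between -0.09 and 0.03.

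The genes most like Cdkn1a were sought among all 13560 genes by the root mean square difference of log2 levels over the 6 libraries, each gene being centred on its sham mean after 0.5 CPM was added. The 5 nearest were Adamts9, a secreted metalloproteinase (difference 0.098), C3ar1, the receptor of complement fragment C3a (0.158), the immediate early gene Ier3 (0.171), Tma16 (0.206) and Arid5a, an RNA-binding protein that stabilises cytokine transcripts (0.228). Adamts9 was at 10.5 ± 1.52 CPM in SCI and 1.99 ± 0.17 CPM in sham, and C3ar1 at 12.7 ± 1.89 CPM in SCI and 3.10 ± 0.53 CPM in sham (SD, n = 3 mice each). The order rested on the added value, which shrinks the change of low genes. With none added, a choice made after seeing the data, 3 of the 5 stayed among the nearest, with C3ar1 (0.127) before Ier3 (0.199) and Tma16 (0.204), while Adamts9 fell to place 8 (0.255) and Arid5a to place 17 (0.365). The log2 fold change of Adamts9 was 2.41, against 2.05 for Cdkn1a. With 0.5 CPM added, Gadd45b was the 40th nearest gene with a difference of 0.453, Gadd45g the 170th with 0.794, and the remaining 7 genes described lay between places 1063 and 9203, Mdm2 at 4466 and Trp53 at 9203.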

How the data were processed

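RNA of bulk spinal cord was measured in 3 SCI and 3 sham libraries whose kit (Lexogen QuantSeq Forward) reads transcript 3′ ends, per the labels' protocols. The authors deposited 1 table of whole-number read counts per library, not normalized. Reads were aligned with STAR 2.7.2b to mm10 with the Ensembl annotation of GRCm38, per the series' design text, and DESeq2 1.24.0 was among the tools per the submitters' processing notes. Not given in the sources used here are the counting tool, its strand setting and its treatment of reads with several matches.

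Genes passed filterByExpr (13560 of 21524 with a count), TMM factors were applied, and edgeR 4.0.16 (R 4.3.3) tested SCI against sham by quasi-likelihood with robust estimation and no covariate. Calls needed an adjusted p (Benjamini-Hochberg, over every gene tested) under 0.05. Standard errors are the log2 fold change over the square root of F, and intervals use edgeR's degrees of freedom. Positions are from GENCODE M21 (GRCm38). The design text gives 3 mice per group, and libraries of the same group differed beyond sampling noise in every pair (chi-square per degree of freedom 6.97 to 38.0, genes summing to 20 counts or more). The procedure was tested on simulated data.

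The genes and lists were chosen with earlier results of these data known. Named were all 10 genes, the 3 of each list with the smallest p or a call, and the 5 genes most like Cdkn1a. Alternatives were DESeq2 size factors, total counts, no filter, a filter of 10 counts in 3 libraries, the DESeq2 Wald test (DESeq2 1.42.0), limma voom (limma 3.58.1), the replicate number as a block, the hepatocyte level as a covariate, leaving out each library, for the ratios a pseudocount of 2 CPM and, added after seeing the data, no pseudocount in the measure of likeness.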

Additional observations from a re-analysis of the deposited data

How the results depend on the processing

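Cdkn1a and Gadd45b were called under all 14 alternatives, with log2 fold changes of 1.92 to 2.15 and 1.47 to 1.79 and adjusted p values of at most 0.00238 and 0.0156. Gadd45g was called in 9 of 14 and not with the replicate number as a block (1.00 ± 0.22, SE; adjusted p = 0.129) or without SCI 1, SCI 2, SCI 3 or sham 1. The other 7 genes were called in none, and no log2 fold change turned its sign. Of the 10 genes, 2 or 3 were therefore called higher and 0 lower. Over all genes, 120 were higher and 6 lower. With no filter the counts were 182 higher and 42 lower, with the hepatocyte level as a covariate 216 higher and 30 lower, and under the block 81 higher and 1 lower. Leaving out 1 library gave 62 to 132 higher, the lowest without sham 1, and 1 to 14 lower. The cause was not tested. Nothing in the labels says that a number is shared, and deviations of same-numbered libraries correlated at -0.09, -0.07 and -0.18 across genes, so no library matched its own number best. The Cdkn1a ratios kept their sign, the difference against Gadd45b running from 0.19 to 0.70 with 1 library left out. Trp53 had 8 to 30 counts per library, a level at which only large changes could be detected.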

Other observations

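Among the genes lying beside the 3 called ones the counts of calls were near the background, 0.929% of all genes at an adjusted p under 0.05 and 7.38% at an unadjusted one. Within 200 kb of Cdkn1a, 7 other genes were tested and 0 called by edgeR (0 at an unadjusted p under 0.05), with log2 fold changes from -0.22 to 0.31. They include Trp53cor1, the long noncoding RNA known as lincRNA-p21, which begins 11797 bases away. It was at 1.65 ± 0.67 CPM in SCI and 1.39 ± 0.44 CPM in sham (SD, n = 3 mice each), a level at which only large changes could be detected. Srsf3, a splicing factor gene farther out on the same side, was at 58.6 ± 8.76 CPM in SCI and 55.7 ± 11.8 CPM in sham. Within 200 kb of Gadd45b, 16 other genes were tested and 0 called (1 at an unadjusted p under 0.05), with log2 fold changes from -0.10 to 0.50, and near Gadd45g 2 were tested and 0 called (0 at an unadjusted p under 0.05). Trp53cor1 and Srsf3 were chosen after their values were seen.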
